A study of Schizosaccharomyces pombe with 6 samples.

Results

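Hap2-GFP binding in fission yeast, Schizosaccharomyces pombe, was described from the 2 lists of ChIP-seq peaks that were deposited for this protein. ChIP-seq sequences the DNA that is precipitated with a protein, and a peak is a stretch where the authors' caller found more DNA than elsewhere. A reproducible region was made by merging peaks of both lists that shared at least 1 bp, and it was kept where each list had a peak. This gave 2198 regions on chromosomes I, II and III, of 5263 merged stretches with a peak in either list. The 2 lists hold 3758 and 4259 peaks on these chromosomes, and the series has 6 samples in all.

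All samples came from 1 strain, named Hap2-GFP Arp5-3HA, which was grown in rich medium (YES). The strain carries both tags, Hap2-GFP being made by adding GFP to the end of the gene at its own locus, and the 2 Hap2-GFP samples were precipitated with anti-GFP. The labels number the replicates but do not say that they came from separate cultures, so differences between the lists may be technical. The 2 input samples named in the labels were not analysed here, and neither was ChIP from a strain without a tag, so DNA that is precipitated without Hap2-GFP was not tested. The lists hold positions and a score but no read counts, so the depth behind each peak is unknown.

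Ino80C is a chromatin remodeling complex that uses ATP to slide nucleosomes and to exchange histones, and it is best known for its action at promoters and at sites of replication and repair. Its motor is Ino80, which works with the actin-related proteins Arp5 and Arp8 and the helicase-like proteins Rvb1 and Rvb2. Hap2 is a small additional subunit in fission yeast. It is not the CCAAT-binding factor that bears the name Hap2 in budding yeast, whose fission yeast counterpart is Php2.

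The sequences under the highest summits show the kinds of DNA on which the results turn. A summit is the base that the authors' caller marked as the top of a peak. All sequences were read from the ASM294v3 reference 5′ to 3′ along the named gene. The first set shows the 2 highest regions at tRNA genes, with the annotated tRNA gene in capitals. The summit is base 76 of each window, so that it lies just inside the gene. The windows are chrI:4265081-4265230 for sup3, a serine tRNA gene, and chrII:2069421-2069570 for the glycine tRNA gene SPBTRNAGLY.09, both on the + strand.
sup3: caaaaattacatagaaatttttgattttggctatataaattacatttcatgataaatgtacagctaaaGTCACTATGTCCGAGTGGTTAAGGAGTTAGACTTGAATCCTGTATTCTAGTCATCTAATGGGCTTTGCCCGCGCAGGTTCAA
SPBTRNAGLY.09: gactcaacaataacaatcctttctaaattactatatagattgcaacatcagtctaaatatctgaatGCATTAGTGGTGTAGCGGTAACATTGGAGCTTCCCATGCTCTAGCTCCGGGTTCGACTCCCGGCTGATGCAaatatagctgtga

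The second set shows 2 of the highest regions at starts of coding genes and 1 inside a coding gene, because these windows are richer in G and C than their surroundings usually are. The window upstream of efm3 is chrI:3466381-3466518 on the + strand and has 44.2% GC. The window upstream of adh1, the alcohol dehydrogenase gene, is chrIII:1590841-1590990 on the + strand and has 52% GC. It is centred on the replicate 2 summit, and the replicate 1 summit of that region, at base 1592286, lies inside adh1. The window in pgk1, the gene for the glycolytic enzyme phosphoglycerate kinase, is chrII:4158191-4158340 on the - strand and also has 52% GC.
efm3: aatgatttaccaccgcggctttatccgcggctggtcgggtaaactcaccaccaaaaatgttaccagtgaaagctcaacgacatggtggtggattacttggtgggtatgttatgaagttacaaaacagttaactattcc
adh1: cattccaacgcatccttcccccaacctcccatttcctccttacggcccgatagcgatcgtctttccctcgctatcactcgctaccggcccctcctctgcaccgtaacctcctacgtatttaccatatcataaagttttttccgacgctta
pgk1: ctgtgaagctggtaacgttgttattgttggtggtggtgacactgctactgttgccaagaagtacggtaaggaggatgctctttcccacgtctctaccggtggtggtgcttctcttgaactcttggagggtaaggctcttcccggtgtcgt

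The third set shows windows of 60 bases around the letters TGACGT, in capitals on either strand, at 3 gene starts. These letters are the core of the site bound by Atf1, the main stress-activated transcription factor of fission yeast, and summits at gene starts held them more often than tiles of the same class did. The windows are chrI:3991556-3991615 (- strand) at pfl2, a gene for a flocculin-like surface protein, chrI:1189455-1189514 (- strand) at SPAC22A12.17C, and chrII:1546138-1546197 (+ strand) at atf1 itself. The site lies 70 bp from the summit at pfl2, 51 bp at SPAC22A12.17C and 82 bp at atf1. Scores in replicates 1 and 2 were 165 and 129 at pfl2, 72 and 101 at SPAC22A12.17C, and 52 and 56 at atf1.
pfl2: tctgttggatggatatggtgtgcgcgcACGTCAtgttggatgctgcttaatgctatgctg
SPAC22A12.17C: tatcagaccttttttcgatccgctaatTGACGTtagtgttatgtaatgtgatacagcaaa
atf1: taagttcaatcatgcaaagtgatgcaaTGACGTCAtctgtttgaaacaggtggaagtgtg

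Agreement between the replicates depended on the score. Scores are whole numbers from 17 upward whose scale is not given, with medians of 28 in replicate 1 and 29 in replicate 2, so they were used only as percentiles within a list. With each list cut by score into 10 equal bins, 98.9% of the replicate 1 peaks in the highest bin and 33.2% of those in the lowest overlapped a peak of replicate 2. For replicate 2 peaks these shares were 96.0% and 29.3%. Over all peaks, 65.9% of replicate 1 (95% Wilson interval 64.3 to 67.4%) and 58.2% of replicate 2 (56.7 to 59.6%) had a partner. These intervals cover counting error only. Peaks with a partner were also wider, with medians of 290 bp in replicate 1 and 310 bp in replicate 2, than peaks without one, whose median was 190 bp in each list. A partner needed only 1 bp of overlap, which a wider peak meets more easily. Median width also rose with score, from 180 bp in the lowest bin to 540 bp in the highest of each list. Width, score and having a partner are therefore not independent, and no level of overlap by position alone was computed.

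In 1794 regions (81.6%) each list had exactly 1 peak, and their summits could be compared directly. The replicate summits lay a median of 70 bp apart, with quartiles of 30 and 140 bp. They were within 50 bp of each other in 764 regions and more than 500 bp apart in 26. Percentiles in the 2 lists had a Spearman correlation of 0.593 over these regions and widths had one of 0.544, which describe regions of the same 2 lists and are not a test. Over all regions the median difference between the 2 percentiles was 13.8 points, and 158 regions differed by more than 50 points.

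A few strong differences between the replicates are named. The region in its3, the gene for a phosphatidylinositol phosphate kinase, was at percentile 6.64 in replicate 1 and 93.6 in replicate 2. The region in fas2, which encodes a fatty acid synthase subunit, was at 86.0 in replicate 1 and 3.01 in replicate 2. The region at the start of cpy1, the gene for vacuolar carboxypeptidase Y, was at 6.64 in replicate 1 and 89.6 in replicate 2. Of the peaks above the 90th percentile, 3 of 365 in replicate 1 and 17 of 429 in replicate 2 had no partner. The highest lone peaks of replicate 2 were in the noncoding RNA gene SPNCRNA.1008 (percentile 99.8), upstream of cys11, a cysteine synthase gene (99.5), and in sde2 (98.8). Those of replicate 1 were in SPBC17A3.05C (96.6), in sap145, a splicing factor gene (93.4), and at SPAC637.03 (93.1).

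**Figure D1:**
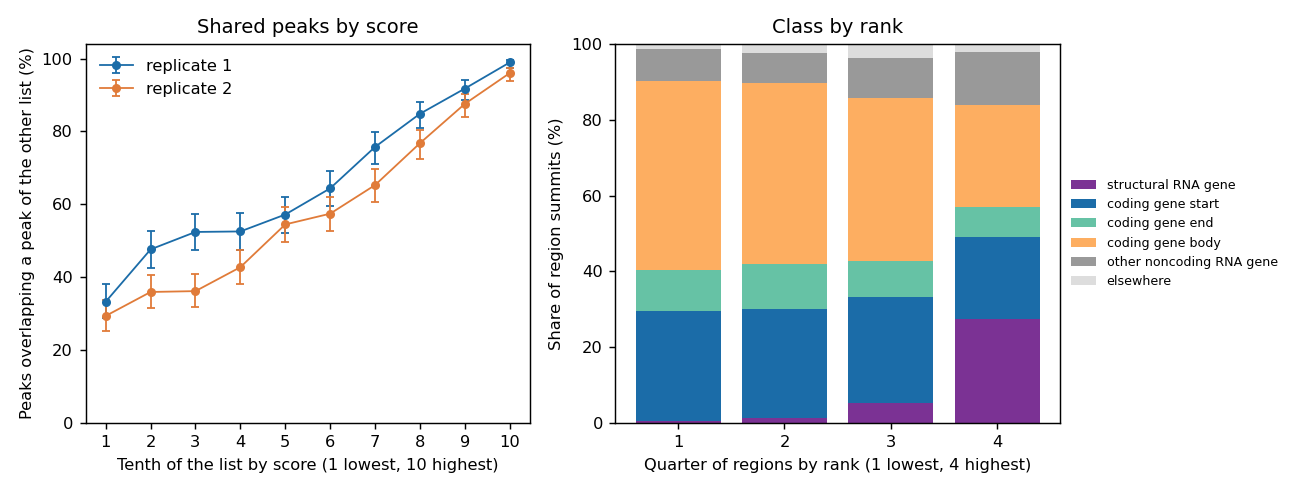
Left, share of peaks of each Hap2-GFP list that overlapped a peak of the other list (y axis, %), by bin of score, 10 equal bins a list (x axis), with 95% Wilson intervals as bars. Right, share of region summits in each annotation class (y axis, %) in 4 equal bins of regions by rank (x axis). The share of peaks with a partner is 33.2% and 29.3% in the lowest bins and 98.9% and 96.0% in the highest, and structural RNA genes make up 27.5% of the highest bin by rank.

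Regions were then placed on the annotation by their summit, in a fixed order of classes. Structural RNA genes (tRNA, rRNA, snRNA and snoRNA genes with 100 bp on each side) came first. Coding gene starts (500 bp upstream to 100 bp downstream of the annotated start), ends (100 bp upstream to 300 bp downstream of the annotated end) and bodies followed, and then other noncoding RNA genes. Structural RNA genes held 190 summits, or 8.64% (95% Wilson interval 7.54 to 9.89%), and 0.829% of the bases. In the single lists the share was lower, 5.51% of replicate 1 peaks and 4.86% of replicate 2 peaks. Other noncoding RNA genes held 225 summits, or 10.2% (9.04 to 11.6%), and 5.15% of the bases. Coding bodies were the other way round, with 921 summits, or 41.9% (39.9 to 44.0%), and 60.03% of the bases. Single lists were closer to the genome here, with 50.4% of replicate 1 peaks and 53.4% of replicate 2 peaks in coding bodies.

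Coding gene starts held 589 summits, or 26.8% (24.99 to 28.7%), and 22.0% of the bases, a ratio of 1.22. The peaks of the single lists were closer to the genome, with 23.3% of replicate 1 and 23.0% of replicate 2 at starts. The ratio also depended on where a gene was taken to start. With the window set from the start codon, 20.9% of summits were at starts, and 22.4% of the bases, a ratio of 0.933. With a window reaching only 250 bp upstream of the annotated start the ratio was 1.43, and with 1000 bp upstream it was 1.07. Coding gene ends held 221 summits, or 10.1%, and 9.08% of the bases, and 52 summits lay in none of these classes.

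**Figure D2:**
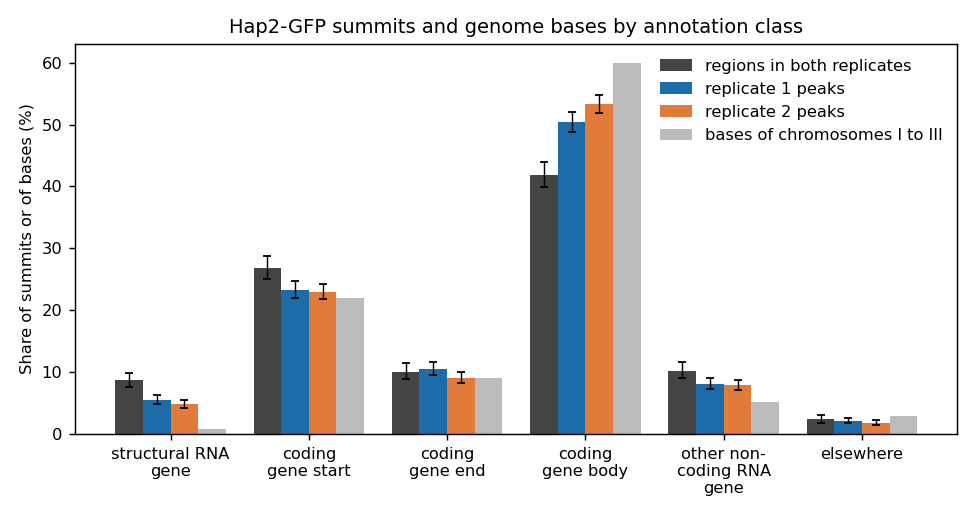
Share of summits of the reproducible Hap2-GFP regions and of the peaks of each replicate, beside the share of bases of chromosomes I, II and III (y axis, %), for 6 annotation classes (x axis). Bars on the shares of summits are 95% Wilson intervals. Structural RNA genes hold 8.64% of region summits and 0.829% of bases, and coding bodies 41.9% of region summits and 60.03% of bases.

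Rank differed between the classes more than width did. Each region was ranked by whichever list gave it the smaller percentile. The median of this rank was 88.1 at structural RNA genes, 62.0 at other noncoding RNA genes, 50.2 at coding starts and at coding ends, and 42.0 in coding bodies. With regions cut by rank into 4 equal bins, from lowest to highest, the share at structural RNA genes was 0.545, 1.28, 5.28 and 27.5%. In the same order, the share in coding bodies was 49.8, 47.9, 43.0 and 26.9%, and the share at coding starts was 28.9, 28.8, 27.9 and 21.6%. Peaks at structural RNA genes had a partner in 94.7% of cases in each list, and those in coding bodies in 56.3% of cases in replicate 1 and 47.8% in replicate 2.

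Regions had a median width of 420 bp, and the widest, over an rRNA gene, was 8800 bp. Median width was 340 bp at structural RNA genes, 370 bp at coding starts and 480 bp in coding bodies, where 25.1% of regions joined more than 2 peaks. The median distance between replicate summits was 20 bp at structural RNA genes, 60 bp at coding starts and 100 bp in coding bodies. The widest regions outside rRNA genes each covered most of a gene. They were 5140 bp at pfl2, a separate region from that at its start, 4840 bp at pma1, the gene for the plasma membrane proton pump, and 4550 bp at atd1, an aldehyde dehydrogenase gene. Wider regions tended to rank higher (Spearman correlation 0.495 over 2198 regions of the same lists).

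At tRNA genes the summits were tightly placed. RNA polymerase III transcribes these genes from promoter elements that lie within them, called the A and B boxes. A region overlapped 163 of 171 tRNA genes (95.3%), set against 25.9% of all 12606 annotated genes. The highest summit over these 163 genes lay a median of 7 bp downstream of the gene's first base, with quartiles of 10 bp upstream and 36 bp downstream. In replicate 1, 63 summits lay in the 50 bp before the first base and 65 in the 50 bp after it. At sup3, in a region that also covers the tRNA gene SPATRNAMET.03, the scores were 106 in replicate 1 and 151 in replicate 2, and at SPBTRNAGLY.09 they were 108 and 105.

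The 8 tRNA genes without a region were SPATRNATRP.01, SPATRNAALA.04, SPATRNAGLU.03, SPATRNAILE.03, SPATRNAALA.05, SPBTRNATRP.02, SPBTRNAVAL.06 and SPCTRNALYS.11. Of these, SPATRNAALA.04, SPATRNAGLU.03, SPATRNAILE.03 and SPATRNAALA.05 lie around the central core of centromere 1, on both sides of the study's amplicon at chrI:3769300-3769499. SPBTRNAVAL.06, at chrII:1619174-1619256, lies between the study's amplicons in the outer repeat (chrII:1608484-1608614) and the central core (chrII:1623467-1623628) of centromere 2. SPCTRNALYS.11, at chrIII:1139536-1139618, lies past the last outer repeat amplicon of chromosome III, at chrIII:1133136-1133266. Replicate 1 alone had a peak over 167 tRNA genes and replicate 2 alone over 165. Many tRNA genes have near-identical copies, and how the authors placed reads that fit several of them is not given in the sources used here.

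Other structural RNA genes divided by kind. A region overlapped 25.9% of all 12606 annotated genes, the share beside which these counts are given. A region overlapped 45 of 47 rRNA genes, whose copies share reads, and 5 of 6 snRNA genes, which encode RNAs of the spliceosome and similar particles. It overlapped 28 of 66 snoRNA genes (42.4%), which guide modification of ribosomal RNA. In 11 of the 66 a region summit lay in the gene or within 100 bp. Of noncoding RNA genes that touch no coding gene, 492 of 1621 (30.4%) were overlapped, near the 25.9% of all genes. Of those that share bases with a coding gene, 1086 of 5550 (19.6%) were. The highest regions in noncoding RNA genes were in SPNCRNA.3851 (scores 118 and 148), SPNCRNA.2469 (102 and 122) and SPNCRNA.628 (105 and 107).

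Around the starts of coding genes the summits formed a peak just upstream and a dip just downstream. Over 5113 coding genes, the 50 bp with most region summits ran from 100 to 50 bp upstream of the annotated start, with 98 summits or 19.2 per 1000 genes. An even spread over the chromosomes would give 8.74 per 1000 genes. The same 50 bp were highest in each list, with 133 summits in replicate 1 and 157 in replicate 2. The lowest count for regions was 15 summits, from 250 to 300 bp downstream, or 2.93 per 1000 genes. In all, 593 region summits lay in the 500 bp upstream of a start and 278 in the 500 bp downstream, a summit near several genes being counted for each of them. Around the start codon there was no such upstream peak, the highest bins being 1000 to 950 bp upstream for regions (56 summits), 750 to 700 bp upstream for replicate 1 (89) and 850 to 900 bp downstream for replicate 2 (110).

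At the ends of coding genes the summits were sparse at the end itself and denser on both sides. The 50 bp just past the annotated end held 26 region summits, or 5.09 per 1000 genes, the lowest count in the 1000 bp on either side. The highest was 92 summits, from 300 to 350 bp past the end. Replicate 1 had its minimum of 37 summits from 100 to 50 bp before the end, and replicate 2 its minimum of 38 in the last 50 bp of the gene. In a compact genome the stretch past an end is often the start or the body of the next gene, and these were not separated.

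**Figure D3:**
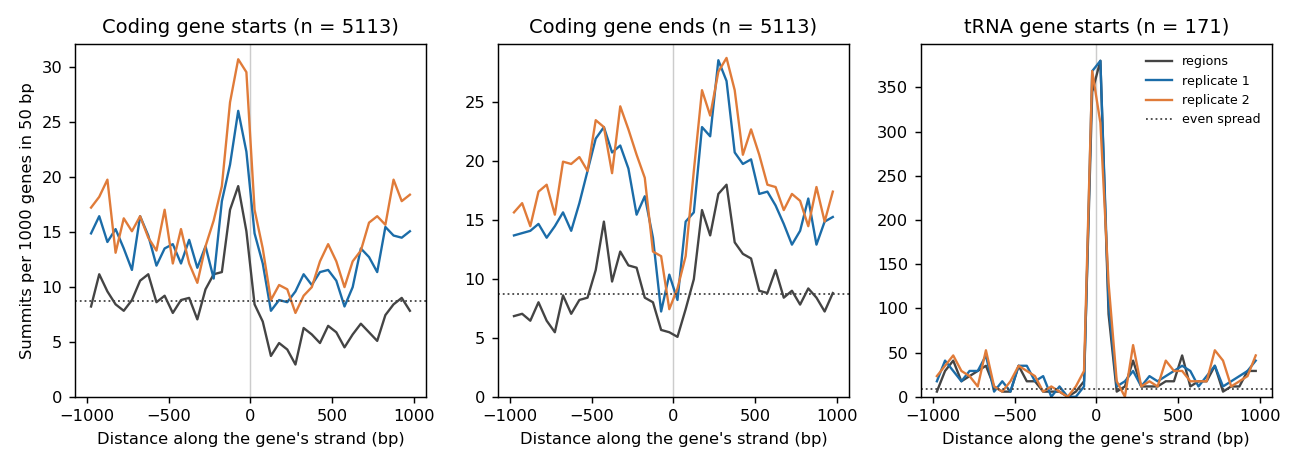
Hap2-GFP summits per 1000 genes in bins of 50 bp (y axis) by distance along the gene's strand (x axis, bp) from the annotated start or end of 5113 coding genes and the start of 171 tRNA genes, for regions and for each replicate. The dotted line is the level that regions would have if spread evenly. For regions, the coding start panel is highest from 100 to 50 bp upstream and lowest from 250 to 300 bp downstream, the coding end panel is lowest just past the end, and the tRNA panel is highest within 50 bp of the start.

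Over all coding genes together, summits inside them leaned to the later part. Of 1297 region summits inside a coding gene, the counts in 10 equal parts of the gene's length, from start to end, were 104, 62, 78, 99, 126, 140, 172, 201, 190 and 125. The lowest and highest counts fell in the same parts in each list, 125 and 375 of 2623 summits in replicate 1 and 182 and 425 of 3039 in replicate 2. The lean was clearest in genes of 1 to 4 kb. In genes of 4 kb or longer the region counts were 15, 11, 12, 17, 17, 14, 12, 17, 15 and 24. In genes under 1 kb they were 8, 10, 7, 11, 20, 23, 23, 17, 16 and 11. Short genes held more summits for their length, with 25.2 region summits per 100 kb in genes under 1 kb, 13.4 in genes of 1 to 2 kb, 11.8 in genes of 2 to 4 kb and 8.70 in longer ones. The order was less even in the single lists, where genes of 1 to 2 kb held 24.9 per 100 kb in replicate 1 and 29.9 in replicate 2, and genes of 2 to 4 kb held 25.9 and 29.6.

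The 2 highest regions inside coding genes lay on glycolytic genes. The region over pgk1 was 3180 bp wide and had scores of 152 in replicate 1 and 207 in replicate 2. The region over tdh1, which encodes glyceraldehyde 3-phosphate dehydrogenase, was 3320 bp wide and had 149 and 252. The next, over SPAC56F8.13 and mug115, which share this stretch on opposite strands, was 3160 bp wide and had 131 and 155. At coding ends, the highest were at SPBC32H8.15 (195 and 113), past the end of gst4, a glutathione S-transferase gene (98 and 102), and past the end of efr3 (88 and 133). The last of these also covers tef101, a translation elongation factor gene that has near-identical copies elsewhere, so its reads may be shared.

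At coding starts, the highest region lay between efm3 and sei1, which are transcribed away from each other and of which sei1 encodes the lipid droplet protein seipin. It had a score of 551 in replicate 1 and 584 in replicate 2, the highest of both lists, and its summit was at -63 bp from the start of efm3 and -112 bp from that of sei1, negative values being upstream. The region at SPAC17A2.11 had 164 and 152, and the region at adh1, which is 3440 bp wide and covers the gene, had 132 and 151. Among the 52 regions in none of the named classes, the highest were at -969 bp from the start of but2 (99 and 118), 399 bp past the end of mat1-Mc, a mating-type gene (146 and 73), and at chrIII:252011-252820 (72 and 94).

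Of 5113 coding genes, 652 (12.8%) had a region summit in the start window and 1442 (28.2%) were overlapped by a region. The space upstream of a gene, measured to the next coding gene, went with this share. It was 8.62% for the 2251 genes with a space under 500 bp, 14.5% for 1134 genes with 500 bp to 1 kb, 16.4% for 895 genes with 1 to 2 kb, and 24.5% for 379 genes with 2 kb or more. For the 453 genes that overlap or touch the upstream gene it was 11.9%. Spaces between neighbouring coding genes were also counted. Where no structural RNA gene was near, a summit lay in 59.1% of 115 divergent and 64.5% of 93 tandem spaces of 2 kb or longer, and in 28.6% of 14 convergent ones. Region summits per 100 kb were also counted in spaces of under 500 bp, 500 bp to 1 kb, 1 to 2 kb and longer. In that order they were 25.6, 19.8, 20.9 and 39.6 in divergent spaces, 23.0, 30.1, 38.9 and 42.9 in tandem spaces, and 30.1, 9.91, 37.4 and 17.9 in convergent spaces, of which the last 3 classes hold 3, 10 and 7 summits.

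Lists of genes were compared with these shares as counts, with no test. The lists were chosen with earlier results of these data known, so a high share of a list is a description only. The list of stress and nutrient transcription factors stood highest at the start window, with 16 of 39 genes (41.0%, set against 12.8% of all coding genes), and 18 of 39 were overlapped (46.2%, set against 28.2%). These genes have long upstream spaces, with a median of 976 bp, set against 461 bp for all coding genes. Split by that space, 10 of the 19 with 1 kb or more and 6 of the 20 with less had a region summit at the start. Among all coding genes the same counts were 240 of 1274 and 412 of 3838. The part of upstream space in the share of this list was not tested.

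The members with the highest start regions were regulators of carbon, amino acid and stress responses. At rst2, which encodes a zinc finger activator that acts when glucose is scarce, the region had scores of 68 in replicate 1 and 77 in replicate 2. At fil1, whose product is a GATA-type activator of amino acid genes, it had 62 and 62, and at hsr1, an oxidative stress regulator, 87 and 61. At cbf12, of the CSL family of DNA-binding proteins, it had 73 and 56. Summits were at -185 bp from the start of rst2, -304 bp of fil1, -247 bp of hsr1 and -371 bp of cbf12. Further members with a start region were atf1 (52 and 56), pap1, the AP-1-like factor of oxidative stress (51 and 55), scr1, a glucose repressor (48 and 67), and ste11, the master regulator of sexual differentiation (33 and 47). The rest were rsv2, prr1, gaf1, php2, zip1, fep1, pho7 and toe1, of which toe1 had the lowest rank, 3.01.

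Genes for iron and copper uptake were also high, with 6 of 15 at the start window (40%) and 9 of 15 overlapped (60%). The shares of all coding genes were 12.8% at the start window and 28.2% overlapped. The highest of these regions overlapped ctr4 (scores 41 and 56), a copper transporter gene that ends before the region's summit, and pcl1 (40 and 46). Those at starts included sib1 (scores 37 and 59), for siderophore synthesis, frp1 (53 and 33), a ferric reductase gene, and fip1 and fio1, the permease and oxidase of iron uptake, which share 1 divergent region (32 and 31). The median upstream space of the iron and copper list was 1244 bp, set against 461 bp for all coding genes. Cell wall genes followed with 6 of 22 at the start window (27.3%), among them psu1 (70 and 93) and gas2 (61 and 42). Their median upstream space was 768.5 bp. Split by that space, 5 of the 10 with 1 kb or more and 1 of the 12 with less had a start summit. Regions also overlapped mok13 (65 and 69) and eng1 (53 and 87), the latter with its summit past the end of eng1. Ergosterol genes had 4 of 21 (19.0%), among them erg11 (32 and 38), the sterol demethylase that azole drugs inhibit. The highest regions of this list lay on erg28 (33 and 57) and erg6 (32 and 39). Amino acid permease genes had 2 of 8 (25%), meu22 (30 and 43) and isp5 (23 and 21), and a median upstream space of 1687 bp. The part of upstream space in these shares was not tested.

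Several lists had no region at a start. These were the proteasome (0 of 29), the nuclear pore (0 of 24), the vacuolar proton ATPase (0 of 15), the mitochondrial ATP synthase (0 of 15) and septins and tubulins (0 of 11). Their median upstream spaces were 649 bp for the proteasome, 380.5 bp for the nuclear pore, 667 bp for the vacuolar ATPase, 445 bp for the ATP synthase and 609 bp for septins and tubulins, set against 461 bp for all coding genes. The overlapped shares of these lists were all below the 28.2% of all coding genes. Those of the nuclear pore (25%) and the proteasome (24.1%) were near it. The lists are small, and these differences were not tested. Regions overlapped 7 of 29 proteasome genes (24.1%), led by rpt6 (39 and 48) and rpt3 (58 and 37), ATPases of the regulatory particle, and 6 of 24 nuclear pore genes, led by nup124 (39 and 48). They overlapped 2 of 15 vacuolar ATPase genes, vma3 (27 and 34) and vma1 (25 and 42), and 3 of 15 ATP synthase genes, led by atp2 (45 and 36). Among septins and tubulins they overlapped spn3 (33 and 60) and nda2 (23 and 28). The summits of the rpt3 and vma3 regions lie past the ends of these genes.

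At the start window, where the share of all coding genes was 12.8%, genes of remodeling complexes lay between these. Their overlapped shares were 50% for SWI/SNF and RSC, 40% for other remodelers and FACT, 31.25% for Ino80C and 20% for Swr1 and H2A.Z. The overlapped share of all coding genes was 28.2%. Of 16 Ino80C genes, 1 had a region at its start, ino80 (26 and 39), and 5 were overlapped. The others were arp5 (50 and 81), act1 (46 and 50), iec3 (20 and 33) and hap2 (46 and 35), the gene that carries the GFP tag. The summit of the act1 region lies past the end of that gene. Of 10 Swr1 complex and H2A.Z genes, vps71 (55 and 47) and bdf1 (25 and 27) had one at the start. SWI/SNF and RSC genes had 2 of 18 at starts, rsc58 (32 and 60) and rsc1 (25 and 38). Regions overlapped 9 of the 18, led by sol1 (104 and 69) and rsc7 (60 and 67), and the summit of the sol1 region lies past the end of sol1. Other remodelers and FACT had 2 of 10 at starts, fft3 (42 and 56) and fft2 (26 and 30). RNA polymerase subunit genes had 5 of 29 at starts, led by rpb5 (47 and 53), which serves all 3 nuclear polymerases, and rpb2 (29 and 40), and rpc25 (45 and 34) was overlapped.

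**Figure D4:**
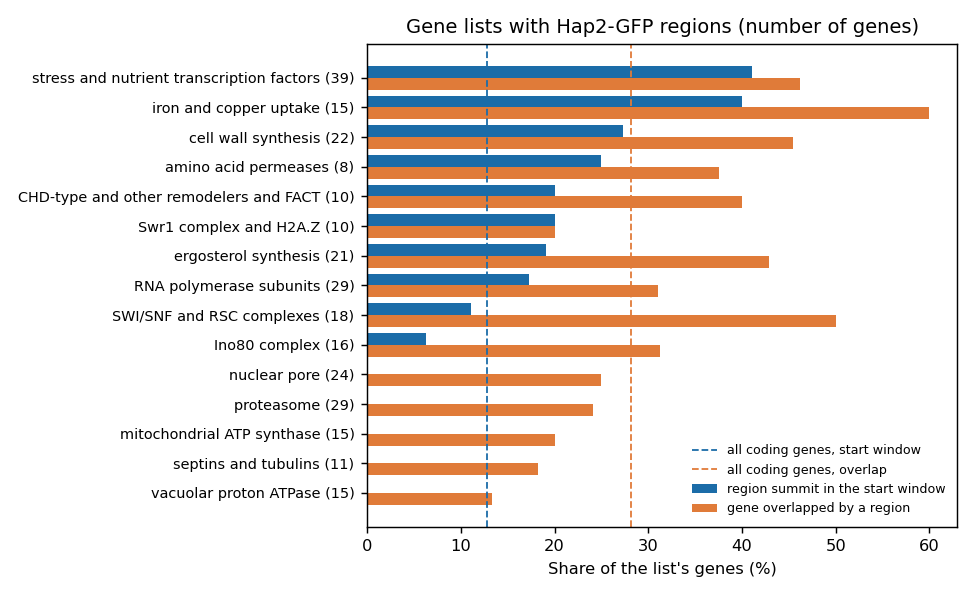
Share of the genes of each list (x axis, %) with a Hap2-GFP region summit in the start window and with any overlap, for 15 lists (y axis, with the number of genes matched). Dashed lines give the shares over all 5113 coding genes, 12.8% and 28.2%. Stress and nutrient transcription factors and iron and copper uptake lie at 41.0% and 40% at the start, and 5 lists have none.

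Summits lay on DNA richer in G and C than the rest of its class. In 200 bp around the summit the median GC content was 41.0%, and in all 62858 tiles of 200 bp of the 3 chromosomes it was 36.0%. At coding starts it was 39% in 589 summit windows and 32.5% in tiles, in coding bodies 44.5% and 38.5%, and in other noncoding RNA genes 40.5% and 33.5%. At structural RNA genes it was 36.5% and 34.5%. In the 4 equal bins by rank, lowest to highest, median GC was 41.0, 41.5, 41.5 and 41.5%. Peaks without a partner were also centred on such DNA, with 40.6% GC in the central 100 bp for replicate 1 and 41.0% for replicate 2, and 36.7% and 36.9% at 400 to 500 bp from the summit. For regions these values were 42.3% and 36.3%. The part of base composition in where peaks were found was not tested.

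**Figure D5:**
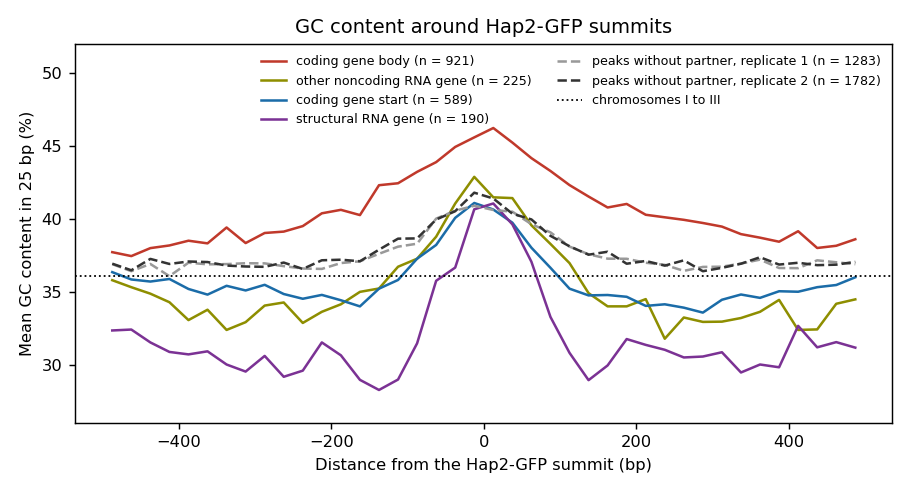
Mean GC content in bins of 25 bp (y axis, %) by distance from the Hap2-GFP summit (x axis, bp) for regions of 4 annotation classes and for peaks of each replicate without a partner. The dotted line is the GC content of chromosomes I, II and III. Every curve is highest within 50 bp of the summit, and that of coding bodies is highest of all.

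Short motifs were counted in the same windows, on both strands, beside the tiles of the same class. At coding starts TGACGT, the Atf1 core, was in 51 of 589 summit windows (8.66%) and in 3.18% of tiles. It was in 12 of 119 windows (10.1%) in the highest of the 4 bins by rank and in 13 of 159 (8.18%) in the lowest. CAGTCACA, the HomolD box of ribosomal protein promoters, was in 13 start windows (2.21%) and in 0.899% of tiles. TATAAA, the TATA box, was less frequent in start windows, with 20.0%, than in tiles, with 35.3%. ACGCGT, bound by the cell cycle factor MBF, was in 2.21% of start windows and 1.76% of tiles, and CCAAT was in 33.8% and 31.1%. Runs of 8 or more A or of 8 or more T were in 10.02% and 15.2%.

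In the other classes TGACGT was in 5.21% of summit windows and 3.35% of tiles in coding bodies, and in 6.67% and 3.16% in other noncoding RNA genes. GGTTCGA, the core of the B box, was in 48.4% of the 190 windows at structural RNA genes and 19.9% of tiles there, tiles being placed without regard to the gene. A match is a description of the letters only. GC content moves with these shares, since TATAAA and runs of A or T are poor in G and C, and its part in them was not tested.

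The study's table of primers gave loci at which single amplicons could be read from the lists. Of 30 pairs, 27 matched the reference exactly, and both lists had a peak over 5 of them. The pairs listed under sim3 and mis15 are identical and match mis15, so 1 amplicon is counted under both names. The amplicon in act1, the actin gene, at chrII:1476810-1476943, lay under peaks with scores of 46 in replicate 1 and 31 in replicate 2. That of mei4, a meiotic transcription factor gene, lay under peaks of 41 and 46, and that at the 5′ end of spd1, an inhibitor of ribonucleotide reductase, under peaks of 24 and 32. The amplicon inside the spd1 coding sequence, had none. The ribosomal DNA amplicon matched 3 places, all under peaks more than 8 kb wide.

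Of the 4 noncentromeric islands of the centromeric histone CENP-A that the study named, NCIS2 lay under peaks of 101 and 83 in a region of rank 97.5. The nearest summits to NCIS2 were 796 bp away in replicate 1 and 866 bp in replicate 2. NCIS1, NCIS3 and NCIS4 lay under no peak, and the nearest summits to NCIS1 were 159 bp away in replicate 1 and 229 bp in replicate 2. No amplicon of the centromeric central cores (cc1, cc1/3 and the 3 named cc2) lay under a peak in either list, nor did any of the 10 matches of the outer repeat amplicon dg. The nearest summits to the cc2 amplicons were between 1563 and 5052 bp away. With ChIP measured by PCR, the paper reported Hap2-GFP at the central cores, at dg and at act1. It also reported Hap2-GFP at the noncentromeric islands. A PCR level and a called peak are unlike measures. The cc1/3 amplicon matched 2 places and dg 10, and the treatment of reads that fit several places is not given. The cc1 amplicon and each cc2 amplicon matched 1 place. With no read counts a level below the peak threshold cannot be told from none. Among amplicons at genes for centromere proteins, that of cnp3 lay under a low peak of replicate 2 (score 21), and those at cnp1, scm3, sim4, mis6, mis15, mis16, mis17, mis18, eic1 and eic2 lay under none.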

How the data were processed

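The 6 samples were assigned by the precipitated protein, or input, and the replicate numbers in their labels, and the 2 Hap2-GFP peak lists were analysed. Per the submitters' processing notes the tools were MACS2 2.1.2, BWA 0.7.17, Trimmomatic 0.36 and deepTools, in no stated order. The commands, the peak threshold, the input chosen and the genome build were not given in the sources used here. A deposited row holds peak limits, the summit's offset and a whole-number score set by the authors' caller. Its columns for enrichment and significance are 0. In both lists the final chromosome III peak stops at the end of that chromosome in ASM294v3, which gave genes and sequence (RefSeq annotation), although the authors' build was not settled. Peaks on other sequences (6 and 8) were left out. With no read counts, neither depth per sample nor its precision is known.

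Peaks of both lists were merged at 1 bp, and a region's summit is that of its highest peak by percentile. The members and gene lists were chosen with earlier results of these data known, so all results are descriptions and no test was made. Shares of summits carry 95% Wilson intervals. The gene lists hold 15 groups written from knowledge of the genes, and symbols that the annotation lacks were dropped. Named are the 3 highest regions of each class, the 3 with the largest replicate gap, the 3 widest outside rRNA genes, the 3 highest lone peaks of each list, loci with primers and the members of each list with the highest regions. Further list members, the 3 gene starts shown for TGACGT and the upstream spaces were chosen after values were seen. Alternatives were a stricter overlap, peaks above the median score of each list, regions away from repeats, single lists, the union, other start windows and centres in place of summits. Merging and classification were tested on simulated data. Python 3.11.15, pandas 2.3.3, numpy 2.4.6, scipy 1.17.1 and matplotlib 3.10.9 were used.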

Additional observations from a re-analysis of the deposited data

Results flagged for a closer look

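The Hap2-GFP lists hold 6 peaks in replicate 1 and 8 in replicate 2 on sequences other than chromosomes I, II and III, which no comparison used. They are 4 and 5 peaks on a sequence named MTR, with scores from 25 to 41 and from 28 to 41, and 2 and 3 peaks on a further sequence outside the chromosomes, with scores from 33 to 35 and from 18 to 35. They are given because they are signal outside the measurements reported, and the input samples, which could serve as controls, were not analysed here. Neither name was matched to the reference, and no gene was assigned to them.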

How the results depend on the processing

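The main limits are the number of lists, the absence of read counts and the lack of a control without the tag. With 2 lists no spread over cultures can be given, and a value is said to have moved where it changed by more than the SD between the single lists (a wider margin for counts), an SD that was 0 for median width.

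The number of regions was 2044 with at least 50% of the shorter peak shared, 2135 without rRNA genes, Tf2 elements and the outer 50 kb of chromosomes, and 1188 with peaks above the median score of each list. The share of summits at coding starts was 27.8% with the stricter overlap, 25.1% with peaks above the median score, 27.3% away from repeats, 22.1% in the union and 23.0 to 23.3% in single lists. It was 19.1% with 250 bp upstream, 39.6% with 1000 bp upstream and 20.9% from the start codon. In that order these windows held 13.3%, 37.1% and 22.4% of the bases. The share of coding genes with a summit at the start was 6.86% with peaks above the median score, 18.0 to 20.5% in single lists and 23.8% in the union. It was 8.84% with 250 bp upstream, 20.0% with 1000 bp and 19.7% for any overlap with the window. The share of tRNA genes was 91.8% with peaks above the median score, 92.4% away from repeats, 96.5 to 97.7% in single lists, 98.8% in the union and 84.2% for a summit within 100 bp. Median width was 410 bp with the stricter overlap, 540 bp with peaks above the median score, 240 bp in each single list and 250 bp in the union. The median distance between replicate summits was 80 bp over all regions and 60 bp with peaks above the median score. Of all alternative values of these main results, 7 stayed within their margin and 30 moved. The margin was 0 for median width and for the distance between replicate summits. Of the values of other results, 19 stayed within the SD between the single lists and 31 moved. The share of summits at structural RNA genes was 15.3% with peaks above the median score, 4.86 to 5.51% in single lists and 4.03% in the union, and that in coding bodies was 55.8% in the union. Depth limits what a missing peak can show, since the lists do not say how many reads lay there. No paired analysis was possible because no result comes from a test between groups.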

Other observations

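Stretches without any reproducible Hap2-GFP region are given as values. In 18 stretches of more than 40 kb no region was found, and the longest was chrIII:1881971-1939330 (57.4 kb). It overlaps 18 coding genes, of which ssp1 is the first and rpl2702 the last. It held 3 peaks of replicate 1 and 6 of replicate 2 that did not overlap each other. The next was chrII:893171-950130 (56.96 kb), with 3 and 10 such peaks. The stretch chrIII:2197691-2248270 (50.6 kb, 21 coding genes) held 0 peaks of replicate 1 and 1 of replicate 2. Whether fewer reads could be placed in these stretches was not tested.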
